A study of Rattus norvegicus with 15 samples.

Results

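The stomach was set against the pooled small bowel in 12 of the 15 arrayed samples of a rat digestive tract series, chosen by segment name: 3 gastric samples and 9 small bowel samples, of which 3 each were duodenal, jejunal and ileal. Each small bowel segment carried equal weight, and all genes on the array were compared, with most room given to genes outside the familiar gastric products. Every sample was a suspension of mucosal cells from untreated animals, Sprague Dawley males per the labels, except that the label of ileum 3 gave neither strain nor sex; no age was given. Bowel segments were everted, digested briefly with the protease pronase and elutriated, per the series text, and each segment was represented by 3 cell isolations. No label says that separate animals were used for the isolations, so the p-values reflect no more than how these samples scatter, which may be technical. Suspensions hold every cell type that was released, and in such bulk samples fewer cells of a type and less RNA per cell cannot be told apart.

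The gastric mucosa secretes acid, pepsinogen and mucus. Its parietal cells exchange protons for potassium with the gastric proton pump and run on mitochondrial ATP, its chief cells store zymogen granules, and its surface and neck cells secrete mucins with trefoil peptides. The small bowel is lined mainly by absorptive enterocytes with a brush border, which take up sugars, peptides and lipids, use glutamine as a fuel and release citrulline, and are accompanied by goblet, Paneth, endocrine and tuft cells. Both epithelia arise from endoderm and share the forkhead, GATA and HNF regulators, while the factor SOX2 marks the foregut and the factors CDX1 and CDX2 mark the intestine.

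Total RNA was amplified, labelled with Cy3 or Cy5 and hybridised to Agilent rat whole-genome arrays. A level below is the log2 of the processed intensity of the sample's own dye minus the 75th percentile of that sample, so 0 is the brightness that 75% of probes stay under. Levels are compared for one probe between samples, never between genes. Median intensities were 782 to 857 in the stomach, against 259 to 1048 in the small bowel, and 95.4% to 97.1% of probes were well above background in the stomach, against 44.4% to 92.5% in the small bowel, where the scanner software set a higher limit for that call (a background multiplier of 2.6 in the stomach and of 13 in the small bowel). Stomach arrays were scanned on a day of their own with an earlier software version and at a coarser resolution, so slide, scan day and stomach cannot be told apart. Each duodenal sample shared an array with a jejunal one. Levels of all genes correlated at 0.98 to 0.987 among stomach samples, at 0.822 to 0.889 between stomach and small bowel and at 0.89 to 0.987 among small bowel samples, across genes, which are not independent replicates.

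Stomach levels exceeded the small bowel for 5351 of 34315 tested genes (15.6%) and fell below it for 4076 (11.9%) by limma's moderated test with Benjamini-Hochberg adjustment (adjusted p under 0.05, two-sided), and the median log2 difference was 0.28. Among the 15752 tested genes with a current symbol, 2025 were higher (12.9%) and 2870 lower (18.2%), with a median of 0.11. These 12.9% and 18.2% are the background for the counts of list members below. Stomach samples all lay above the 9 small bowel samples in 5250 genes (15.3%) and all below them in 3323 (9.68%). Higher calls were many among dim genes: of 3 equal parts by level, the dimmest held 1596 higher and 314 lower genes (median 0.49), and the brightest 1964 higher and 2557 lower (median 0.04). Among called genes with a current symbol the log2 difference was at least 3 for 198 and at most -3 for 262. Requiring a probe to be well above background in all 12 samples left 2398 higher and 3812 lower calls (38.6% higher, against 56.8% in the main comparison), and background correction with normexp gave 4302 and 4647 (48.1%). A filter that ignored the stomach's background calls left 28002 genes, with 4430 higher and 4161 lower (51.6% higher). Some genes thus entered the main comparison through the stomach alone, and their higher calls are not independent of the filter. The median of all genes was -0.06 with normexp, 0.10 with quantile normalisation and 0.37 with scaling to the median of bright probes, so a small difference of a single gene or list is not apart from the choice of scaling. Leaving out stomach 1, 2 or 3 gave 3318, 3444 and 2994 higher genes with 3270, 2946 and 2988 lower ones, and taking scan day as the random block gave 2565 and 2535.

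**Figure D1:**
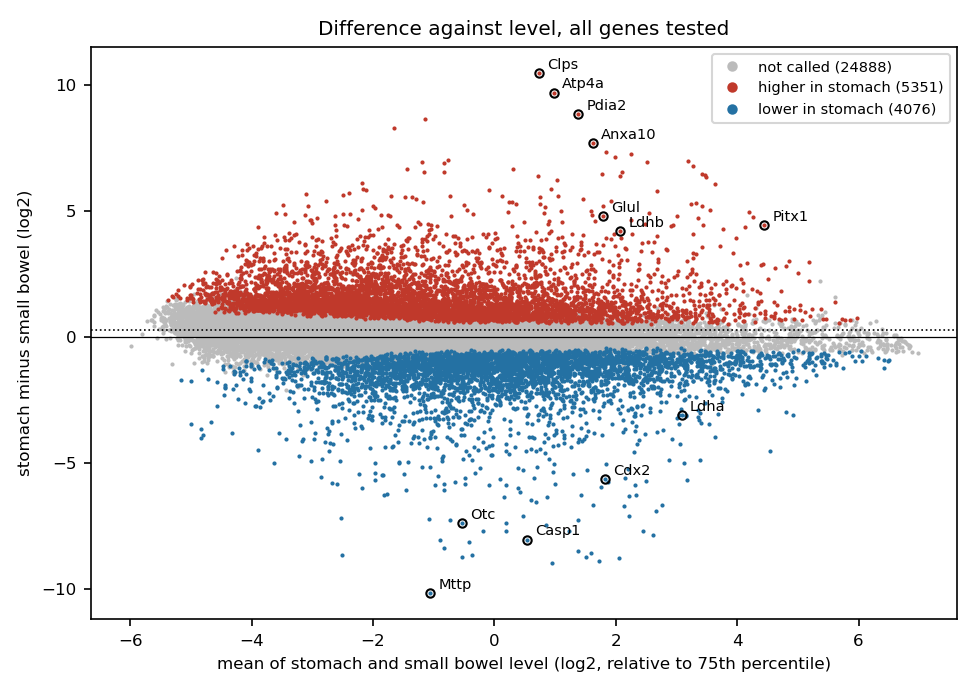
Each point is a tested gene, with the mean of its stomach and small bowel levels on the x axis (log2, relative to the 75th percentile of each sample) and the log2 difference, stomach minus small bowel, on the y axis; red genes were called higher and blue genes lower in the stomach. The dotted line is the median of all genes, 0.28, and the dim genes on the left hold more higher than lower calls (1596 and 314 in the dimmest of 3 equal parts).

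The 3 marker genes of each epithelium separated the samples by organ. They were chosen with earlier results of these data known, so their separation is no independent check of the labels. Atp4a, the proton pump's catalytic chain, had levels of 6.06, 5.58 and 5.84 in stomach 1 to 3, against a lowest of -5.12, a median of -3.88 and a highest of -2.47 in the small bowel. Pdia2, a disulphide isomerase of secretory cells, had 6.0, 5.53 and 5.84 in the stomach, against -4.06, -2.96 and -2.09 in the small bowel in the same order. Anxa10, a gastric annexin, had 5.57, 5.24 and 5.57 in the stomach, against -3.73, -2.65 and -0.37 in the small bowel, and its 3 highest small bowel levels were the duodenal ones. For each of these the groups were far apart, with log2 differences of 9.68 ± 0.33, 8.82 ± 0.26 and 7.67 ± 0.30 (SE of the fit here and below). A second probe for Atp4a gave 4.72, and stomach 3 was at the ceiling of its scan for Atp4a and Pdia2.

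The small bowel markers lay as far apart the other way. Mttp, the lipid transfer protein of chylomicron assembly, had -5.54, -5.88 and -7.03 in stomach 1 to 3, where it was not well above background, against 2.87, 3.91 and 6.63 as the lowest, median and highest small bowel levels. Si, the brush border sucrase-isomaltase, had -5.38, -4.45 and -4.89 in the stomach, against 1.55, 3.99 and 6.78 in the small bowel. Tff3, the trefoil peptide of goblet cells, had -2.15, -2.51 and -2.33 in the stomach, against 4.90, 6.24 and 8.28 in the small bowel. All 3 were lowest within the small bowel in ileum 3 and highest in jejunum 1, and no sample of one organ reached the other. Si and Tff3 had log2 differences of -8.74 ± 0.50 and -8.77 ± 0.28. On its brightest probe Mttp was at least 895-fold lower in the stomach (limma adjusted p = 3.32e-11). The other Mttp probe gave -3.13, so that bound belongs to the brightest probe and not to the gene.

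**Figure D2:**
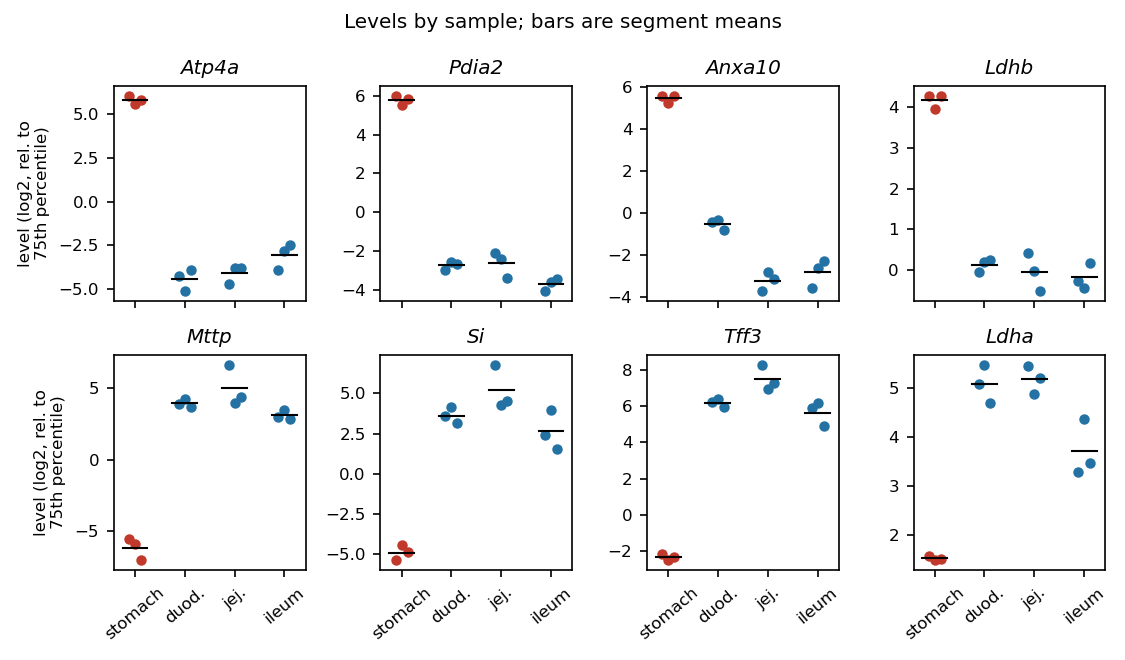
Each point is the level (log2, relative to the 75th percentile) of a gene in 1 sample of the stomach (red), duodenum, jejunum or ileum (blue), and each bar is a segment mean of 3 samples. The upper row (Atp4a, Pdia2, Anxa10, Ldhb) is higher in all 3 stomach samples than in any small bowel sample, and the lower row (Mttp, Si, Tff3, Ldha) is lower.

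The promoter of a marker is the stretch where region-specific factors such as CDX2 can act, so the 250 bases before the annotated gene start are printed for 3 of the largest decreases and for 2 of the largest increases, from RefSeq on build GRCr8, in the direction of transcription. Capitals mark matches to TTTATNG, the CDX site, or to AGATAA, the GATA site, on either strand. Of the 25 largest increases and the 25 largest decreases, 19 each had a promoter in the RefSeq table, and Mttp was not among them. Fabp1, the liver-type fatty acid binding protein, was lower by -7.86 ± 0.36, and differed by -0.06 on another probe.
Si, chr2:159884903-159885152, reverse strand: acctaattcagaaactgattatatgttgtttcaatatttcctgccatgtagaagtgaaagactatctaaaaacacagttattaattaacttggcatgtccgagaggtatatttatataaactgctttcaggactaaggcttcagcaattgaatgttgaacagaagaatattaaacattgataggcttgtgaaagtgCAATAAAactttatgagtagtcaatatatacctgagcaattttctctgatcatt
Hnmt, chr3:27010292-27010541, reverse strand: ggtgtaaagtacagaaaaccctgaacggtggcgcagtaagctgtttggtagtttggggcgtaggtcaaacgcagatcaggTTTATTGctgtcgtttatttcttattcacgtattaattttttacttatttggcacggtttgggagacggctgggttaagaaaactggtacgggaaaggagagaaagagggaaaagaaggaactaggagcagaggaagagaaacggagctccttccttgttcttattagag
Fabp1, chr4:104749090-104749339, forward strand: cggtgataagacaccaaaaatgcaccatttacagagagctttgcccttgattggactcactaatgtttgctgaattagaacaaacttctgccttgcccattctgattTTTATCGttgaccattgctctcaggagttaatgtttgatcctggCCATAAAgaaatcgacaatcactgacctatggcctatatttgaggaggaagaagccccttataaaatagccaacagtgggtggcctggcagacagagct
Atp4a, chr1:95088872-95089121, forward strand: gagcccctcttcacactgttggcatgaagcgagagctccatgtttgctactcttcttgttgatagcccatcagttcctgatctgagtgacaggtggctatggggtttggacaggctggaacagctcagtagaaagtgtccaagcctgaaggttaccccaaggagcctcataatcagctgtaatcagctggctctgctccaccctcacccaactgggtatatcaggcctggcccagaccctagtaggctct
Pdia2, chr10:15723376-15723625, reverse strand: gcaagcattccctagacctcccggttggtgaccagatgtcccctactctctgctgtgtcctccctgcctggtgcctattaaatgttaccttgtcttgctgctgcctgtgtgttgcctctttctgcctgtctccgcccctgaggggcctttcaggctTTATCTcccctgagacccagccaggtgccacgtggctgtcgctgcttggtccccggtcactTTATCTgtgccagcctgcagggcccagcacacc
TTTATNG was found in 9 of the 19 promoters of genes lower in the stomach, in 3 of the 19 of genes higher there and in 2766 of all 27457 RefSeq promoters of the same length. In the smaller set of 12853 promoters of tested genes the share was 8.32%. Some of these matches overlap the letters TATAAA of a TATA box, as the one that starts 24 bases before the gene start of Tff3 does. Without such overlaps, 4 of the 19 lower and 1 of the 19 higher genes kept a match, against 7.04% of all promoters. The 3 decreases printed above are among those 4, and the 2 increases printed hold no TTTATNG, so the printed examples are not typical. Gsta2, a larger decrease than Si, had no match to either site. AGATAA was found in 4 of 19 in both directions, against 10% of all promoters. These matches describe letters in a window and are not binding sites.

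Energy metabolism differed isozyme by isozyme. Of 22 glycolysis genes, 11 were lower in the stomach and 6 higher (median log2 difference -0.72). Ldhb, the heart-type lactate dehydrogenase subunit of oxidative tissue, had levels of 4.27, 3.96 and 4.28 in stomach 1 to 3, against -0.51, -0.01 and 0.42 as the lowest, median and highest small bowel levels. Ldha, the muscle-type subunit, had 1.58, 1.49 and 1.5 in the stomach, against 3.28, 4.87 and 5.46 in the small bowel. The subunits therefore moved in opposite directions, by 4.19 ± 0.22 for Ldhb (adjusted p = 3.38e-10) and by -3.12 ± 0.24 for Ldha (adjusted p = 2.89e-08). Phosphofructokinase, the committed step of glycolysis, showed the same split. The muscle form Pfkm had 2.60, 2.17 and 2.71 in the stomach, against -1.33, -1.06 and -0.60 in the small bowel (3.52 ± 0.20). The platelet form Pfkp had 0.05, -0.31 and 0.18 in the stomach, against 1.78, 2.37 and 3.90 in the small bowel (-2.65 ± 0.29). Of the hexokinases, which trap glucose in the cell, Hk1 was higher (3.29 ± 0.25), although another Hk1 probe gave 0.58. The liver-type pyruvate kinase Pklr was lower, with -3.46, -3.19 and -3.21 in the stomach against -0.43, 0.78 and 1.75 in the small bowel.

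Glucose production and fructose use were lower as a group, with 8 of 11 genes lower, 1 higher and a median of -2.43. Khk, the fructokinase, had -0.61, -0.62 and -0.64 in stomach 1 to 3, against 1.68, 3.76 and 5.44 as the lowest, median and highest small bowel levels (-4.13 ± 0.34). Fbp1, the fructose bisphosphatase, had 0.64, 0.47 and 0.54 in the stomach, against 3.00, 4.72 and 5.34 in the small bowel (-3.88 ± 0.23, and -1.36 on another probe). Both genes were lowest in ileum 3 and highest in jejunum 1 within the small bowel and still did not overlap the stomach. Tkfc, the triokinase that follows Khk, and Pck1, the cytosolic PEP carboxykinase, were lower by log2 differences of -4.27 and -3.44 (-1.67 on another Pck1 probe). The mitochondrial carboxylase Pc, which turns pyruvate into oxaloacetate, was the exception: 3.52, 3.13 and 3.36 in the stomach, against 1.08, 1.40 and 2.48 in the small bowel (1.86 ± 0.25, adjusted p = 2.07e-05).

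Of 23 genes of the tricarboxylic acid cycle and pyruvate dehydrogenase, which feed the respiratory chain, 13 were lower and 2 higher (median -0.74). Mdh2, the mitochondrial malate dehydrogenase, had 1.36, 1.04 and 1.52 in stomach 1 to 3, against 3.38, 5.08 and 5.74 as the lowest, median and highest small bowel levels (-3.48 ± 0.26). Idh1 and Idh3b, isocitrate dehydrogenase subunits of the cytosol and of the mitochondrial cycle, were lower by -2.48 and -2.21. Pdha1, the catalytic subunit of pyruvate dehydrogenase, went the other way, with 3.69, 3.46 and 3.69 in the stomach against 1.94, 2.16 and 2.69 in the small bowel (1.35 ± 0.17). Adenylate kinase 1 (Ak1), which passes on high-energy phosphate, was not well above background in any small bowel sample and was at least 7.49-fold higher in the stomach. Ckmt1, the ubiquitous mitochondrial creatine kinase, was lower by -1.54 and was closest to the stomach in the ileum.

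**Figure D3:**
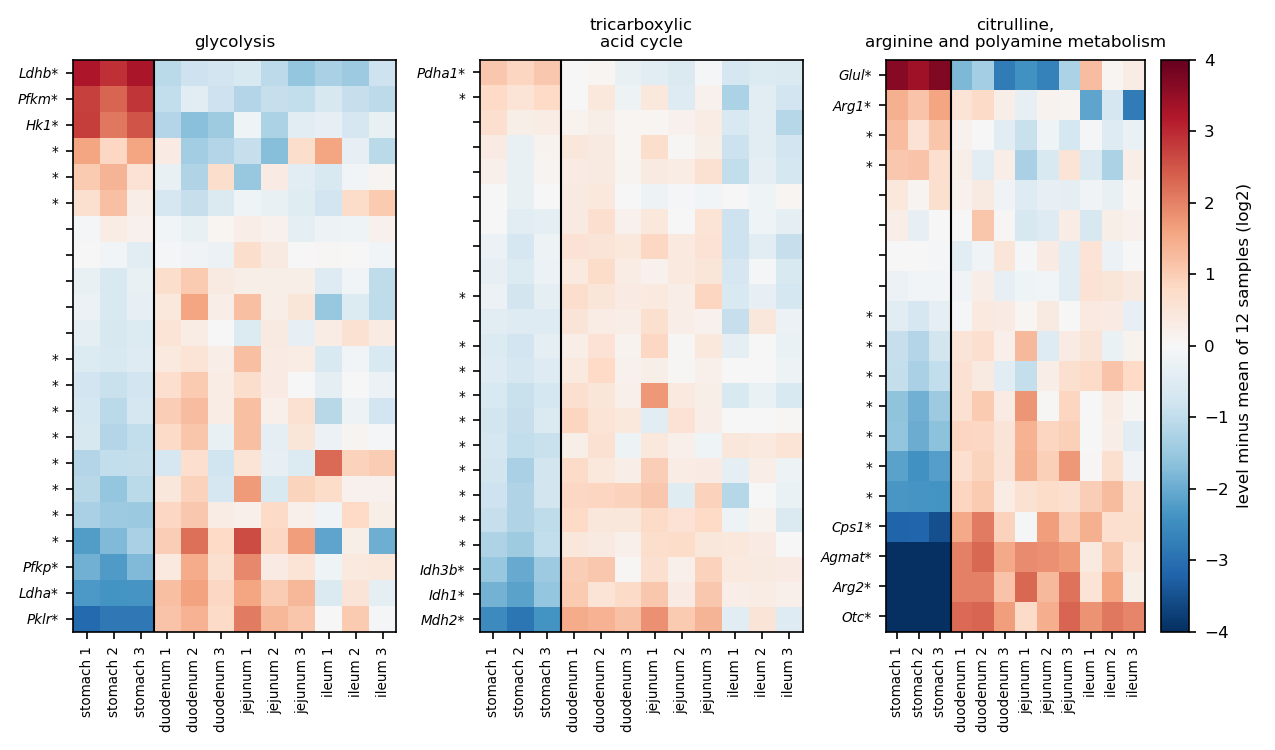
Rows are genes of 3 lists, with names given for some, and columns are the 12 samples, stomach first; colour is the level minus its mean over the 12 samples (log2, red above and blue below), and an asterisk marks a gene called between the organs. In each panel the few genes at the top are red in all 3 stomach columns (Ldhb, Pfkm and Hk1; Pdha1; Glul), and most rows below are blue there.

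Enzymes of citrulline and arginine metabolism were more often lower than higher in the stomach. In the list of citrulline, arginine and polyamine metabolism 12 of 20 genes were lower and 4 higher (median -1.35). Otc, which makes citrulline from ornithine, had -3.80, -4.35 and -4.57 in stomach 1 to 3, against 2.08, 3.25 and 3.65 as the lowest, median and highest small bowel levels (-7.41 ± 0.34, 169.8-fold, adjusted p = 4.64e-11). Glul, the glutamine synthetase, had 4.25, 3.99 and 4.29 in the stomach, against -2.21, -0.77 and 1.83 in the small bowel (4.77 ± 0.35), but probes for Glul disagreed, from -0.73 to 4.77. Cps1, the mitochondrial carbamoyl phosphate synthetase, and Agmat, annotated as agmatinase, were lower by -4.39 and -5.86.

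Arginases, which split arginine into ornithine and urea, moved in opposite directions. The mitochondrial Arg2 had -2.37, -3.14 and -2.73 in stomach 1 to 3, against 1.89, 3.25 and 3.96 as the lowest, median and highest small bowel levels (-5.89 ± 0.29). The cytosolic Arg1 had 1.16, 0.88 and 1.31 in the stomach, against -3.06, -0.17 and 0.50 in the small bowel (1.84 ± 0.33, adjusted p = 0.000424). Neither arginase had overlapping groups.

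Breakdown and salvage of nucleotides also leaned toward the small bowel, with 13 of 31 genes lower and 3 higher (median -0.48). Gda, the guanine deaminase, had -1.65, -1.92 and -2.18 in stomach 1 to 3, against 2.86, 3.99 and 5.27 in the small bowel (lowest, median, highest). Xdh, the xanthine dehydrogenase, had -1.16, -1.57 and -1.09 in the stomach, against 1.67, 2.83 and 3.97 in the small bowel. Their log2 differences were -5.85 ± 0.39 and -4.19 ± 0.27. The nucleoside carrier Slc28a2 (-4.04, and -1.86 on another probe) and Dpyd, the first enzyme of pyrimidine breakdown (-3.90), were also lower, while the AMP deaminase Ampd3 was higher (1.93). Hnmt, the histamine methyltransferase, had -4.99, -5.05 and -4.79 in the stomach, against 2.30, 3.22 and 3.81 in the small bowel (-8.08 ± 0.25, 271-fold), and the diamine oxidase Aoc1 was lower by -8.65.

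Among sodium and proton pump subunits and their FXYD partners, 8 of 18 were higher and 1 lower (median 0.76). Besides Atp4a, the other pump subunit Atp4b was at the ceiling of the scan in all 3 stomach samples and at least 84.2-fold higher. Fxyd3, a small regulator of the sodium pump, had 6.19, 5.80 and 5.83 in stomach 1 to 3, against 1.16, 2.05 and 2.65 as the lowest, median and highest small bowel levels (3.92 ± 0.20). Atp1b1, a beta subunit of the sodium pump, did not pass (0.62 ± 0.31).

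Potassium recycling is needed for each turn of the proton pump, and 8 of 23 potassium channel subunits were higher, against 3 lower. Kcnj16, an inward rectifier, had 2.17, 1.97 and 2.21 in stomach 1 to 3, against -5.20, -4.28 and -3.58 as the lowest, median and highest small bowel levels (6.54 ± 0.36, with 4 of 9 small bowel samples well above background). Kcne2, the beta subunit that opens the parietal channel KCNQ1 in acid, was higher by 3.30, and Kcnq1 itself did not pass (0.85 ± 0.47). The calcium-activated Kcnn4 (-2.92) and the beta subunit Kcne3 (-2.24), both known from intestinal chloride secretion, were lower. With probes restricted to those well above background in all 12 samples, 0 potassium channel subunits were higher and 2 lower. That filter left 15023 genes to test, against 34315 in the main comparison. Here and in the lists below, members it removed were not tested, so fewer calls under it are not calls reversed.

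Chloride and bicarbonate genes divided by member. Of 24 chloride channel genes, 4 were higher and 5 lower, a balance that turned to 6 higher and 5 lower with scaling to the median of bright probes. Clcn2, a basolateral channel of enterocytes, had -3.71, -4.23 and -4.04 in stomach 1 to 3, against -0.15, 0.37 and 1.25 in the small bowel (lowest, median, highest), a difference of -4.37 ± 0.30. Clic6, known from gastric and other secretory cells, was higher (3.42). Among SLC4, SLC9 and SLC26 exchangers, 7 of 25 were higher and 3 lower. Slc26a7, a basolateral chloride-bicarbonate exchanger of parietal cells, was at least 7.16-fold higher. Slc4a2, the parietal anion exchanger, was higher by 1.57, and Slc26a3, the intestinal chloride-bicarbonate exchanger, was lower by -6.08. Of 14 carbonic anhydrases, which supply protons and bicarbonate, 6 were higher and 2 lower, led by the cytosolic Car2 (4.71). With probes well above background in all 12 samples, the exchangers were even at 3 and 3 and the carbonic anhydrases at 2 and 2.

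Slc5a5, the sodium-iodide symporter known from thyroid and gastric mucosa, was among the largest increases. Its levels were 5.16, 4.67 and 5.2 in stomach 1 to 3, against -3.19, -1.39 and -0.26 as the lowest, median and highest in the small bowel (6.46 ± 0.40, 88.2-fold). All 3 stomach samples were close to each other, and the highest small bowel level was in duodenum 2.

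Secretory folding split between a few genes far higher in the stomach and a broad set that was lower. In the list for the endoplasmic reticulum, where secreted proteins fold, 15 of 33 genes were lower and 5 higher (median -0.24). The higher ones were led by Pdia2, by Bhlha15 and by Ero1b (3.49), the oxidase of professional secretory cells. Bhlha15, the factor MIST1 of zymogen-storing cells, had 2.76, 2.46 and 2.87 in stomach 1 to 3, against -2.70, -2.27 and -1.19 as the lowest, median and highest small bowel levels (4.93 ± 0.34). Agr3, a thiol isomerase of the family of the goblet cell protein AGR2, had -2.06, -2.08 and -2.12 in the stomach, against 1.60, 2.90 and 3.30 in the small bowel (-4.67 ± 0.17, adjusted p = 4.31e-12). Canx, the membrane chaperone calnexin, was lower by -1.72, and the main luminal chaperone Hspa5 did not pass (0.14 ± 0.33).

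Vesicle traffic to the apical surface held 10 higher and 9 lower of 32 genes, and 10 higher and 11 lower with normexp. The higher ones included the granule GTPases Rab27b (2.13), Rab27a (2.06) and Rab26 (1.92), with Sytl4 (1.97), an effector of RAB27. Myo5b, the motor whose loss causes microvillus inclusion disease in humans, was lower (-2.0). Of 29 enzymes of mucin type O-glycosylation, 7 were higher and 7 lower, and 6 were higher and 9 lower with normexp. The sialyltransferase St3gal6 had 0.26, -0.11 and 0.40 in stomach 1 to 3, against -3.67, -3.21 and -2.91 in the small bowel (lowest, median, highest), a difference of 3.42 ± 0.26. The core enzyme Galnt2 (2.01) and the sialyltransferase St6galnac2 (2.21) were higher, while B3gnt5 (-1.96) and Galnt7 (-1.70) were lower. Fut2, the secretor fucosyltransferase, was lower by -2.19 on one probe and differed by 0.07 on another.

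Of the 24 gene families examined, 23 had called members in both directions. Among all genes with a current symbol 12.9% were higher and 18.2% lower. How often other sets of such sizes hold calls in both directions was not tested. Alpha class glutathione transferases, which conjugate reactive compounds, were the extreme. Gsta1 had 5.63, 5.24 and 5.76 in stomach 1 to 3, against -3.53, -2.37 and 0.91 as the lowest, median and highest small bowel levels (7.11 ± 0.23, 138-fold higher). Gsta2 had -1.89, -3.60 and -2.69 in the stomach, against 3.39, 6.45 and 8.70 in the small bowel (-8.89 ± 0.42, 474-fold lower). A further member, Gsta4, was lower by -3.53 ± 0.21. Probes assigned to Gsta2 disagreed, since 1 that was matched through an expressed sequence tag gave 0.30. Because the genes are relatives, the array probes that read them are printed in full from the scanner files, with capitals on their longest shared run.
Gsta1: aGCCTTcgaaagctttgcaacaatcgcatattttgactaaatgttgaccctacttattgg
Gsta2: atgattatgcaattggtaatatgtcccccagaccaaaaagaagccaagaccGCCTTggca
The 2 probes, for genes on chromosomes 9 and 8, share no run longer than 5 of 60 bases. That run compares the probes with each other and not with the other gene's transcript. Whether a probe also reads the other gene was not tested.

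Pla2g1b, the secreted phospholipase known from pancreas, and Pla2g1bl1, annotated as its relative, were at the ceiling of the scan in all 3 stomach samples (7.29, 6.90 and 5.79) and at least 109.7-fold and 124-fold higher. Their probes, for genes on chromosomes 12 and 6, share at most 6 bases in a run, in capitals. Here too the probes were compared only with each other, and whether one also reads the other gene was not tested.
Pla2g1b: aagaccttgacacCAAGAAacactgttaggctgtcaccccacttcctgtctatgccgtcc
Pla2g1bl1: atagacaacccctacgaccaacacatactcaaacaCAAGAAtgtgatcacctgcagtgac
Clps, the colipase, had 6.29, 5.75 and 5.83 in stomach 1 to 3, against -6.01, -4.49 and -3.34 as the lowest, median and highest small bowel levels (10.46 ± 0.41), with 3 of 9 small bowel samples well above background and 1 stomach sample at the ceiling of its scan. Among 25 secreted phospholipases and lipases 5 were higher and 8 lower. The list of pancreatic acinar genes, which shares members with it, held 8 higher and 0 lower of 23 genes, with mean levels of -0.42 to -0.30 in the stomach, against -2.28 to -1.25 in the small bowel. It includes Cela3b (3.76) and Ptf1a (3.40), the pancreatic factor, while the trypsinogens Prss2 (-0.04) and Prss3 (-0.02) and the lipase Cel (-0.27) did not pass. The part of pancreatic cells in these values was not tested.

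Annexins, which bind membranes with calcium, were 4 higher and 4 lower of 11 (3 and 5 with normexp). Opposite Anxa10 stood Anxa13, an annexin of intestinal epithelium, with -2.48, -2.0 and -2.73 in stomach 1 to 3, against 1.18, 2.38 and 3.25 as the lowest, median and highest small bowel levels (-4.68 ± 0.21). Of 11 S100 calcium-binding proteins 2 were higher and 3 lower: S100a6 was higher by 2.22 (0.78 on another probe), and S100g, the vitamin D dependent calbindin, had -1.06, -0.86 and -0.90 in the stomach, against 3.01, 5.13 and 7.64 in the small bowel (-6.33 ± 0.26, and -0.86 on another probe). Of 10 mucins 4 were higher and 3 lower (0 and 3 with probes well above background in all 12 samples). The gastric Muc5ac (6.95) and the membrane mucin Muc1 (4.88, and 1.31 on another probe) were higher, and the membrane mucins Muc13 (-7.28) and Muc3 (-6.17) were lower.

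Proteases and steroid enzymes also held members in both directions. Of 12 cathepsins 5 were higher and 3 lower. Ctse, an aspartic protease of gastric surface cells, had 6.31, 5.88 and 5.82 in stomach 1 to 3, against 0.51, 0.63 and 1.61 as the lowest, median and highest small bowel levels (5.17 ± 0.21), while Ctsz and Ctss were lower by -2.95 and -2.86. Of 16 aldo-keto reductases 3 were higher and 5 lower. Akr1c15 had 5.52, 5.08 and 5.48 in the stomach, against -4.04, -1.24 and 0.87 in the small bowel (6.52 ± 0.30), and its relative Akr1c12 was lower (-2.85). Of 17 hydroxysteroid dehydrogenases 1 was higher and 5 lower. The higher one was Hsd17b3, the testosterone-forming enzyme of the testis, with 4.16, 3.44 and 4.0 in the stomach, against -3.58, -1.88 and -1.07 in the small bowel (5.85 ± 0.50, adjusted p = 1.18e-07). The stomach samples of Ctse, Akr1c15 and Hsd17b3 all lay above every small bowel sample.

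**Figure D4:**
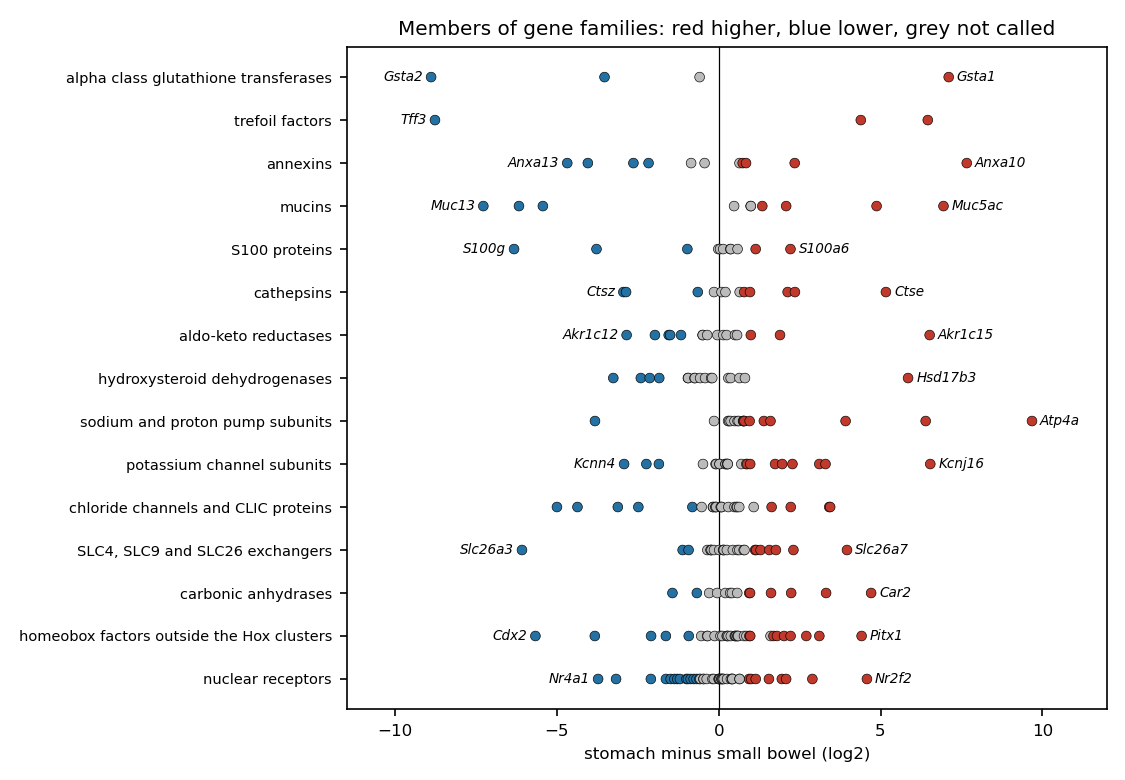
Each point is a tested member of a gene family, placed by its fitted log2 difference, stomach minus small bowel; red members were called higher, blue lower and grey not called, and names are given for most of the highest and lowest members. Alpha class glutathione transferases run from -8.89 (Gsta2) to 7.11 (Gsta1), and annexins from -4.68 (Anxa13) to 7.67 (Anxa10).

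Receptors that steer acid secretion and their G protein signalling held 12 higher and 4 lower of 35 genes (median 0.54). Cckar, the receptor for cholecystokinin on somatostatin and chief cells, had 1.64, 1.44 and 1.93 in stomach 1 to 3, against -3.93, -2.86 and -2.28 as the lowest, median and highest small bowel levels (4.77 ± 0.43). Receptors for secretin (Sctr, 2.39), for glucagon-like peptide 1 (Glp1r, 2.28) and for the incretin GIP (Gipr, 1.96) were higher. The receptors Hrh2 (0.94 ± 0.45) and Cckbr (0.64 ± 0.24), which carry the histamine and gastrin signals to parietal cells, did not pass. Gna11, a G protein alpha subunit that couples to calcium release, had -2.41, -2.50 and -2.34 in the stomach, against 0.24, 1.11 and 1.51 in the small bowel (-3.46 ± 0.29). Many of these receptors are dim, and with probes well above background in all 12 samples 2 genes were higher and 3 lower.

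Prostaglandins protect the gastric mucosa, and 9 of 27 genes of prostaglandin and leukotriene synthesis and reception were higher and 7 lower, against 7 and 8 after quantile normalisation. Ptgis, the prostacyclin synthase, had -0.16, -0.53 and -0.15 in stomach 1 to 3, against -4.84, -3.50 and -3.03 as the lowest, median and highest small bowel levels (3.42 ± 0.40). Ptger3, the inhibitory receptor for prostaglandin E2, was at least 3.84-fold higher, and the phospholipase Pla2g4a that releases arachidonate was higher by 2.09. Lta4h, which makes leukotriene B4, had 0.80, 0.63 and 0.78 in the stomach, against 3.12, 3.43 and 4.01 in the small bowel (-2.73 ± 0.19). The prostaglandin E synthase Ptges did not pass (0.25 ± 0.26). Prostacyclin synthase is known from blood vessels, and 9 of 14 endothelial markers were higher too; their part in this value was not tested.

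Regional transcription factors separated the organs. Cdx2, the master factor of intestinal identity, had -1.01, -1.13 and -0.88 in stomach 1 to 3, against 4.08, 4.73 and 5.08 as the lowest, median and highest small bowel levels (-5.67 ± 0.20, adjusted p = 2.9e-12), and Cdx1 was lower by -3.83. Sox2, the foregut factor, had -0.82, -1.35 and -1.27 in the stomach, against -5.36, -4.45 and -3.53 in the small bowel, where 1 of 9 samples was well above background (3.41 ± 0.37). Sox5 had 2.15, 1.84 and 2.17 in the stomach, against -2.69, -2.09 and -1.26 in the small bowel (4.10 ± 0.28, and 0.70 on another probe). In the SOX and GATA families 5 of 19 were higher and 1 lower, and Gata4 (0.02 ± 0.24) and Sox9 (0.85 ± 0.46) did not pass.

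Homeobox factors outside the Hox clusters were 9 higher and 5 lower of 33 (2 and 3 with probes well above background in all 12 samples). Pitx1, better known from hind limb and pituitary, was at the ceiling of the scan in all 3 stomach samples (7.29, 6.90 and 5.79), against 1.42, 2.12 and 3.29 as the lowest, median and highest small bowel levels, so it was at least 21.4-fold higher. Nkx2-3 (3.11) and Nkx6-2 (2.71) were higher. Pdx1, the factor of duodenum and pancreas, was lower in the pooled comparison (-2.09) with overlapping samples, since it differed by -4.27 from duodenum, -2.57 from jejunum and 0.56 from ileum. Forkhead factors were 6 higher and 0 lower of 17, with Foxa2, a pioneer factor of endoderm, at 4.56, 4.4 and 4.46 in the stomach, against 1.53, 2.03 and 2.24 in the small bowel (2.5 ± 0.17).

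Of 44 nuclear receptors 14 were lower and 8 higher. Nr2f2, the orphan receptor COUP-TFII, had 3.28, 2.82 and 3.45 in stomach 1 to 3, against -2.69, -1.40 and -0.23 as the lowest, median and highest small bowel levels (4.58 ± 0.40). Nr1h3, the oxysterol receptor LXR alpha (-3.17), and Nr1h4, the bile acid receptor FXR (-2.10), were lower, and so was Hnf4g, an enterocyte HNF4 form (-1.63). Nr4a1, an immediate early gene, was lower by -3.73. Among Krueppel-like factors Klf15 was higher (2.74) and the epithelial Klf5 was lower (-2.30).

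Interferon-induced genes were lower in the stomach in 16 of 29 and higher in 3 (median -1.12), and the lower ones were led by the machinery that cuts and loads peptides for MHC class I. Psmb9, an immunoproteasome subunit, had -1.82, -1.83 and -1.54 in stomach 1 to 3, against 3.94, 4.61 and 4.99 as the lowest, median and highest small bowel levels (-6.30 ± 0.23, adjusted p = 2.9e-12). Psmb8, its partner subunit, had -0.84, -0.96 and -1.07 in the stomach, against 2.82, 3.37 and 3.56 in the small bowel (-4.21 ± 0.25). Psmb10 and the peptide transporter Tap1 were lower by -3.06 each, while Ifitm3, an antiviral membrane protein, was higher (2.11). The antiviral Mx1 (0.29) and the ubiquitin-like modifier protease Usp18 (0.21) did not pass. Casp1, the inflammasome protease that matures interleukin 1 beta, had -3.51, -3.60 and -3.36 in the stomach, against 3.97, 4.62 and 5.21 in the small bowel (-8.05 ± 0.18, 265-fold, adjusted p = 1.78e-14). Macrophage and monocyte markers, which could bring such genes, were 1 higher and 3 lower of 16, with mean levels of -0.74 to -0.63 in the stomach, against -0.89 to 0.29 in the small bowel, so the groups overlapped. Their part in the differences was not tested.

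Of 33 genes of adherens junctions, desmosomes and gap junctions 15 were lower and 5 higher (median -0.23). Cdh17, the intestinal cadherin, had -2.83, -3.32 and -2.44 in stomach 1 to 3, against 4.80, 5.44 and 7.34 as the lowest, median and highest small bowel levels (-8.49 ± 0.31, and -4.77 on another probe). The protocadherin Cdhr5, which links brush border microvilli, was lower by -7.70, and Cdh1, the general epithelial cadherin, did not pass (0.55 ± 0.31). Gap junction proteins split: Gja1, connexin 43, had -0.18, -0.48 and -0.13 in the stomach, against -4.65, -3.58 and -2.71 in the small bowel (3.33 ± 0.30, and 0.44 on another probe), and Gjb2, connexin 26, had -0.49, -0.68 and -0.74 in the stomach, against 2.18, 3.64 and 4.14 in the small bowel (-4.06 ± 0.23). Of 16 keratins 2 were higher and 4 lower, with Krt23 (2.57) and Krt20 (-7.71), the keratin of differentiated enterocytes, at the ends.

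Enzymes against peroxides and of glutathione handling were lower in 15 of 33 and higher in 6 (median -0.22). Gpx1, the general glutathione peroxidase, had 6.02, 5.78 and 5.83 in stomach 1 to 3, against 2.76, 2.89 and 3.35 as the lowest, median and highest small bowel levels (2.89 ± 0.20). Gpx2, the gastrointestinal form, was lower by -2.75, and differed by -0.18 on another probe. Mgst1, a microsomal glutathione transferase, was lower by -3.1 ± 0.20. Glutathione synthesis was divided between its steps: Gclm, the modifier subunit of the first enzyme, was higher (3.50 ± 0.51, with 3 of 9 small bowel samples well above background), and Gss, the second enzyme, was lower (-2.54).

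**Figure D5:**
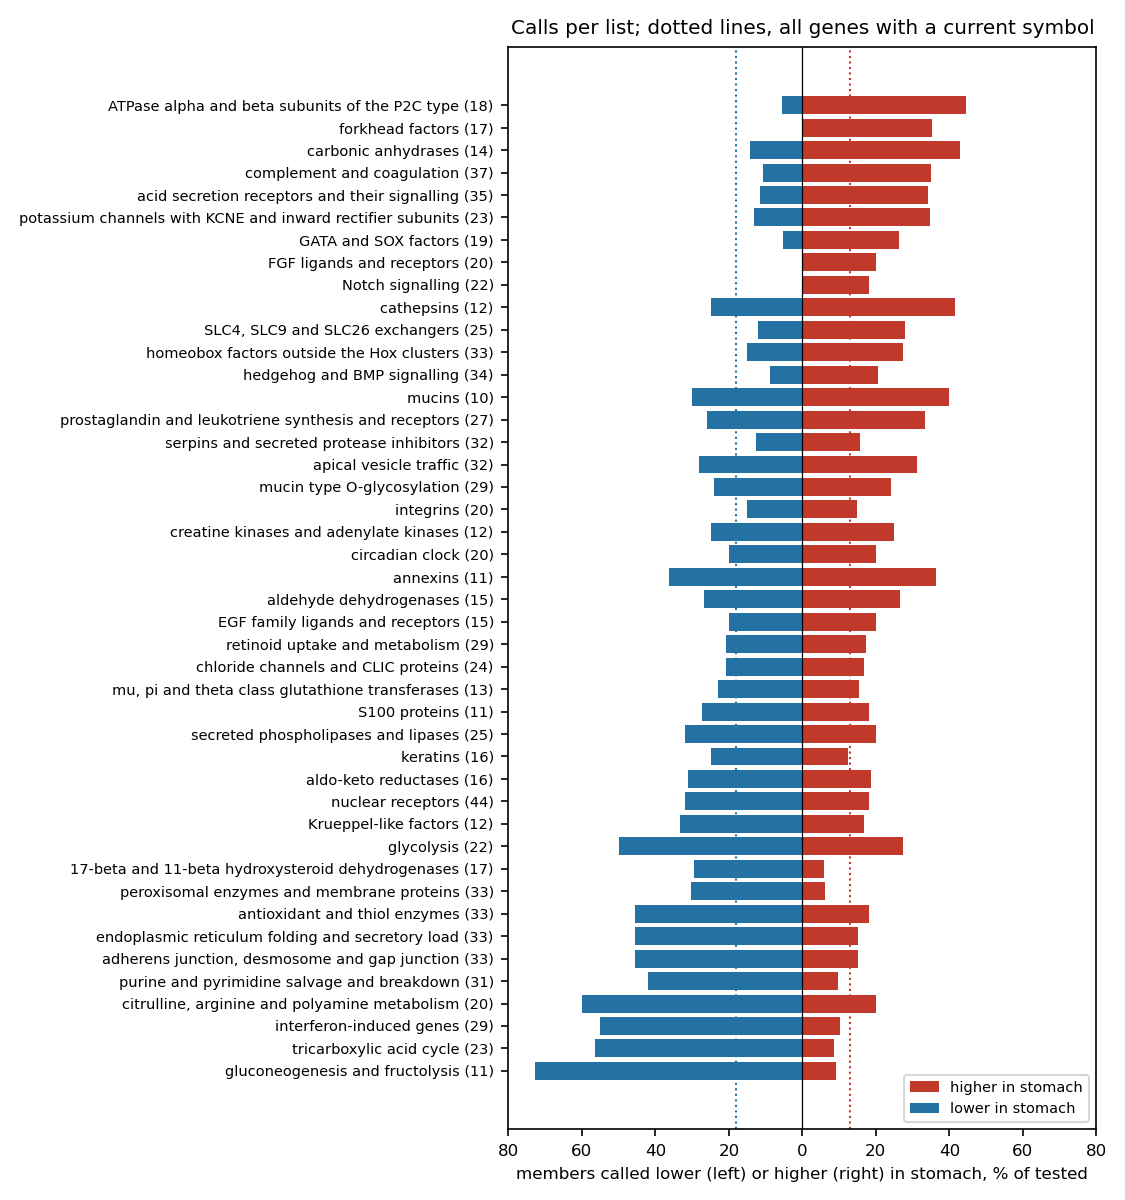
Each row is a pathway or family list with at least 10 tested members (number in brackets; marker, handling and normalisation lists are not drawn), ordered by the percentage higher minus the percentage lower; the red bar to the right is the percentage of tested members higher in the stomach and the blue bar to the left the percentage lower, and dotted lines mark 12.9% and 18.2% of all genes with a current symbol. Sodium and proton pump subunits stand at the end with more higher members (8 of 18), and gluconeogenesis and fructolysis at the other (8 of 11 lower).

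Some gastric genes reached into the duodenum. Comparisons with single segments share the stomach samples, so their values are given side by side. Gkn1, a gastrokine of surface cells, was at the ceiling of the scan in the stomach, against -2.67, -0.42 and 4.66 as the lowest, median and highest small bowel levels, so its fitted differences of 2.32 from duodenum, 6.75 from jejunum and 9.08 from ileum are lower bounds. Adh7, the class IV alcohol dehydrogenase, had 2.98, 2.72 and 3.23 in stomach 1 to 3, against -5.82, -2.50 and 1.23 in the small bowel, with differences of 2.27, 5.60 and 8.18 in the same order. Tff2, the trefoil peptide of mucous neck cells and duodenal glands, gave 0.63, 4.92 and 7.63. The highest small bowel level of Gkn1 and of Adh7 was in duodenum 2. In the opposite direction the ileum was closest for several lower genes, with differences of -8.20 from duodenum, -5.91 from jejunum and -1.07 from ileum for the alcohol dehydrogenase Adh1c.

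Of 21 fibroblast and matrix genes 13 were higher and 0 lower (median 1.30, and 0.49 with normexp), and their mean level was 0.01 to 0.04 in the stomach, against -2.60 to -1.24 in the small bowel. Dcn, the proteoglycan decorin, had 6.10, 5.67 and 5.84 in stomach 1 to 3, against -2.41, -1.26 and -0.72 as the lowest, median and highest small bowel levels (7.24 ± 0.24). Of 14 endothelial genes 9 were higher and 0 lower, with mean levels of -0.75 to -0.57 in the stomach, against -2.65 to -1.60 in the small bowel. With probes well above background in all 12 samples, 3 of 8 fibroblast and matrix genes (median 0.25) and 3 of 5 endothelial genes (median 0.82) were higher. Smooth muscle genes were 5 higher and 1 lower of 13. Complement and coagulation genes were 13 higher and 4 lower of 37 (4 and 4 with probes well above background in all 12 samples), among them the endothelial thrombomodulin Thbd (5.40, with 1 of 9 small bowel samples well above background) and the C1 inhibitor Serping1, which had 3.82, 3.92 and 3.35 in the stomach, against 0.22, 0.69 and 1.17 in the small bowel. Lpl, the lipoprotein lipase of fat and vessel beds, was higher by 5.04 ± 0.43, with 2 of 9 small bowel samples well above background.

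Immediate early and heat shock genes, which rise when tissue is dissociated, were lower in the stomach in 21 of 28 and higher in 1 (median -1.72). Fos had -1.58, -1.88 and -1.68 in stomach 1 to 3, against 2.51, 3.49 and 4.44 as the lowest, median and highest small bowel levels (-5.37 ± 0.29). The mean level of that list was 0.42 to 0.51 in the stomach, against 1.92 to 2.88 in the small bowel. Genes commonly used for normalisation were lower in 12 of 22 and higher in 1 (median -0.71), with mean levels of 2.89 to 3.19 in the stomach, against 3.42 to 4.31 in the small bowel. The part of these lists in the differences of other genes was not tested.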

How the data were processed

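Mucosal cell suspensions of rat stomach, duodenum, jejunum, ileum and colon, 3 per segment, were hybridised to arrays with 2 channels, and the channel of the dye named in the labels was used. Per the file headers, the deposited processed signal is an intensity from Agilent Feature Extraction (version 8.5.1.1 for the stomach, 9.5.1.1 or 9.5.3.1 for the small bowel), with background subtracted and dyes normalised within the array. The authors' deposited value table holds the same intensities on a linear scale. The segment names in the sample titles gave the groups. The members of the comparison and the gene lists were chosen with earlier results of these data known.

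Intensities were turned into log2 values, each sample's 75th percentile was taken off, and spots marked non-uniform or population outlier were left out. The scanner files name genes as in the array design; of 41012 probes, an accession gave a current name to 10214, a gene ID to 5051, the symbol as it stands to 4322 and a former symbol to 1116, leaving 20309 with their design name. Probes entered the test if all samples of 1 or more segments were well above background, and the brightest probe stood for a gene. A probe could therefore enter through the stomach alone, where the limit for that call was lower. Limma 3.58.1 in R 4.3.3 fitted segment and dye, over all 15 samples, with an intensity trend and slides as random blocks (9 residual degrees of freedom, correlation 0.359); the contrast was stomach minus the equally weighted mean of duodenum, jejunum and ileum. Tests were two-sided, with Benjamini-Hochberg adjustment over all genes tested. The fit was tested on simulated data, with 50 genes changed at each size. It called 38 and 40 of them at log2 changes of 2 and -2, and 14 and 11 at 1 and -1, in the right direction. Only these genes were changed among 34324, and samples were drawn independently, without slide or dye effects. In the data 27.5% of genes were called and slides were correlated, so these rates do not carry over to the comparison. A gene that did not pass may still differ. For dye, 0 genes passed limma's adjusted threshold and 644 had an unadjusted p under 0.05; no other tool was run.

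"At least" folds mark genes not well above background on any array of the lower side, or saturated on all arrays of the higher side. For the former, signals under the dimmest signal called well above background in that sample were raised to it. Signals over it were kept, even where they were not themselves well above background. These folds are therefore bounds for a probe under that rule and not detection limits. Signals at the limit of the scanner in only some samples were kept as measured. Levels of Fxyd3, Ctse, Gpx1 and Dcn in stomach 3 lay close to those of genes at the ceiling of that scan, so their differences may be understated. The number of arrays limits the precision. Named genes were, among those with a current symbol, the 25 largest differences in each direction with non-overlapping samples, the 6 markers, up to 4 called members per direction and 4 not called members of each list, members of a family at its ends, and those of these genes with a small bowel segment closer to the stomach; exceptions are stated, and some genes these rules cover are not reported here. Promoters come from RefSeq on GRCr8. Alternatives covered background correction, scaling, filters, probes, dye, blocks, samples and single segments. Proteins were not used here.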

Additional observations from a re-analysis of the deposited data

How the results depend on the processing

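The counts of 5351 higher and 4076 lower genes moved by over 1.5 times in these cases: 2398 higher when probes had to be well above background in all 12 samples (15023 genes were tested, which lowers the count), and 2565 higher and 2535 lower with scan day as the random block, where the cause was not tested. Leaving out 1 sample gave 2994 to 6036 higher and 2946 to 4663 lower genes, and the higher count moved by over 1.5 times without stomach 1 (3318), 2 (3444) or 3 (2994). Quantile normalisation gave 5317 and 4765 and scaling to the median of bright probes 6404 and 3662. Of 358 called genes named by the rule, 296 stayed called through every omission of 1 sample, and 67 lost it with scan day as the block. Among the 25 largest differences in each direction, none lost its call in 750 and 770 comparisons of genes with settings. A gene that a setting left untested was not counted there, and these genes had been picked for large differences without overlap. Without jejunum 1, the defensin Defa24 was 328-fold lower, against 211.6-fold with it. Replicate numbers were not treated as pairing the samples: deviations of same-numbered samples correlated at -0.421 to 0.294, and with the replicate block 5662 genes were higher and 4120 lower. Averaging over probes reversed Bco1 (-1.50) and Sod1 (-0.80), whose probes differ, and testing without the stomach's background calls reversed Nr2f1 (-0.10) by taking another probe. Setting the ileum alone in place of the pool reversed Gbp2 (-1.57), Areg (0.11), Gusb (-0.079), Kcnk6 (-0.82), Slc4a7 (0.15), Pdx1 (0.56), Avil (1.33) and C1qb (-1.11); the duodenum alone reversed Spink1 (0.50) and Srgn (0.36), and the jejunum alone Spink1 (0.15), by their levels in those segments. In these settings Areg, Gusb, Slc4a7, Pdx1, Spink1, Srgn and Nr2f1 changed sign without passing (limma adjusted p 0.181 to 0.908), while Bco1 passed (0.00317). Gbp2, Kcnk6, Avil, C1qb and Sod1 had not been called in the main comparison, so no call of theirs was reversed. These genes passed, with the opposite sign, only in the setting named. The balance of higher and lower members turned with the scaling for prostaglandins and chloride channels, and with normexp for vesicle traffic. Annexins and O-glycosylation were even in the main comparison and held more lower than higher members with normexp. Dim genes are limited by signal over background, which the scanner software judged by a lower limit in the stomach.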

Other observations

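Hedgehog and BMP genes were 7 higher and 3 lower of 34 (4 and 4 with probes well above background in all 12 samples). FGF genes were 4 and 0 of 20 (2 and 0 with no filter on dim probes, 3 and 1 with normexp). Notch genes were 4 and 0 of 22 (3 and 1 with normexp), beside 12.9% and 18.2% of all genes with a current symbol. Among these lists Bmp4, Smad9, Ihh, Fgfrl1, Fgfr2, Notch1, Jag2 and Heyl lost their call without some single stomach samples and with scan day as the block. Fgf18 (2.26) and Fgf13 (2.19), growth factor family members, led the FGF list, and Bmp3, a BMP antagonist in bone, was lower (-2.59). In the EGF list Lrig3, a leucine-rich regulator of receptors, had -1.76, -2.07 and -1.84 in stomach 1 to 3, against -6.76, -6.10 and -3.25 as the lowest, median and highest small bowel levels (3.59 ± 0.63, adjusted p = 0.00036 by limma), where 1 of 9 samples was well above background, and the receptor Erbb2 was lower (-1.68). Clock genes were 4 higher and 4 lower of 20. Peroxisomal genes were 2 higher and 10 lower of 33, and retinoid genes 5 higher and 6 lower of 29, with the intestinal retinol binding protein Rbp2 lower by -7.41. Secreted protease inhibitors were 5 higher and 4 lower of 32, with Serping1 (3.04) and Spint1 (-2.06) at the ends.

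Ribosomal protein genes were 8 higher and 28 lower of 113, with a median of -0.34, and 1 of them stood apart. Rpl38, chosen after its values were seen, had 1.08, 1.53 and 1.72 in stomach 1 to 3, against -4.98 to -3.41 in the small bowel, where 4 of 9 samples were well above background. Its log2 difference was 5.47 ± 0.33, and the next highest ribosomal protein gene had 2.65.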
